A study of Spongilla lacustris with 18 samples.

Results

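Juvenile freshwater sponges, Spongilla lacustris, were compared 24 h after tryptamine had been washed out with sponges still in tryptamine at 4 h. The comparison uses 6 of the 18 libraries of the study, chosen by their labels: 3 of the recovery group and 3 of the 4 h group. Both groups were wild-type whole bodies grown for 9 days at 18 °C and exposed to 37.5 µM tryptamine for 4 h. The 4 h group was taken then, and the recovery group after washout and a further 24 h. The matching vehicle groups, also 3 libraries each, received 0.03% DMSO and were taken at the same times; 1 h groups of both treatments give an earlier level. The labels do not say whether the tryptamine medium also held DMSO. Recovery against 4 h joins the removal of tryptamine, a day of time and the handling of the washout. The DMSO libraries carry the day of time and the handling without the drug, so the change in DMSO, the difference between both changes, or both stand beside many results. A gene given without them is described in the tryptamine libraries alone, where washout, time and handling cannot be told apart.

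A sponge has no neurons and no muscles, yet it contracts its water canals by means of sheets of pinacocytes that hold actin and myosin. Choanocytes beat flagella that drive water through the canals, and motile archaeocytes are the stem cells from which other cell types form. Tryptamine is a trace amine made from tryptophan, and in vertebrates such amines act mainly through G protein-coupled receptors. Calmodulin, cyclic GMP and nitric oxide are among the messengers known to act in sponge contraction. In whole bodies, fewer cells of a type and less RNA per cell cannot be told apart.

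The RNA was polyA-selected and counted as read pairs per gene of an assembled transcriptome. The 6 libraries held 11915906 to 13553297 counted pairs and the 18 libraries 11379345 to 23769406. Levels are CPM (counts scaled to a common library total by TMM), and 3 counts correspond to 0.206 to 0.259 CPM in the 6 libraries, a floor for counting error only. Gene names come from the deposited table and state similarity to named relatives. The labels number the replicates but do not say that they were separate cultures, so p-values measure only the spread between libraries. That spread was estimated over all 18 libraries together, not over the 6 compared libraries alone. Tryptamine 4 h replicate 2 stood apart: its scaling factor was 0.854, against 1.00 and 1.02 in the other two, and its levels fell with gene length (slope -0.046, others 0.019 and 0.00247). The slopes of the 3 recovery libraries were 0.027 to 0.040, so the groups did not overlap in this respect. The share of gene length in the changes was not tested gene by gene; with the trend removed from every library, 307 genes were higher and 926 lower.

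Genes that rose in recovery included 18 of 100 for DNA replication and the cell cycle, among them the mitotic motors KIF20A and CENPE, and the lysosomal protease LGMN. Genes that fell included single ubiquitin ligases such as RNF130 and ANKIB1, a GABA-B type receptor and the asparaginase ASPG. Among 24125 tested genes, 337 rose (1.4%) and 832 fell (3.45%), together 4.85%, at an edgeR quasi-likelihood adjusted p under 0.05. The median log2 change was 0.79 for the genes that rose and -1.16 for those that fell, while all tested genes had a median of 0.04. In 330 of the rises and 783 of the falls the 3 libraries of one group lay outside the range of the other, against 21.5% of all tested genes. Both counts rested on single libraries: without tryptamine 4 h replicate 2 there were 34 rises and 116 falls, and without recovery replicate 2 there were 56 and 140. Without 4 h replicate 3 there were 96 and 453, without recovery replicate 1 196 and 639, without recovery replicate 3 283 and 514, and without 4 h replicate 1 517 and 1284. A fit of both groups alone called 0 higher and 12 lower genes, with 3523 at an unadjusted p under 0.05. The same kind of fit of the 2 DMSO groups called 638 higher and 1218 lower genes.

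In DMSO over the same interval 612 genes rose (2.54%) and 1044 fell (4.33%), together 6.86%. Of the tryptamine rises, 81 also rose in DMSO, which is 24.0% of the tryptamine list and 13.2% of the DMSO list. Of the falls, 272 were shared, 32.7% of the tryptamine list and 26.1% of the DMSO list. Of the 337 genes that rose in tryptamine, 299 had a positive change in DMSO, with a median of 0.39, and 770 of the 832 falls had a negative one, with a median of -0.65. Both comparisons use different libraries, and across all tested genes their log2 changes had a Pearson correlation of 0.48, given as a description because genes are not independent. These genes were chosen for passing in tryptamine, so the sizes of the medians in both treatments cannot be compared.

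**Figure D1:**
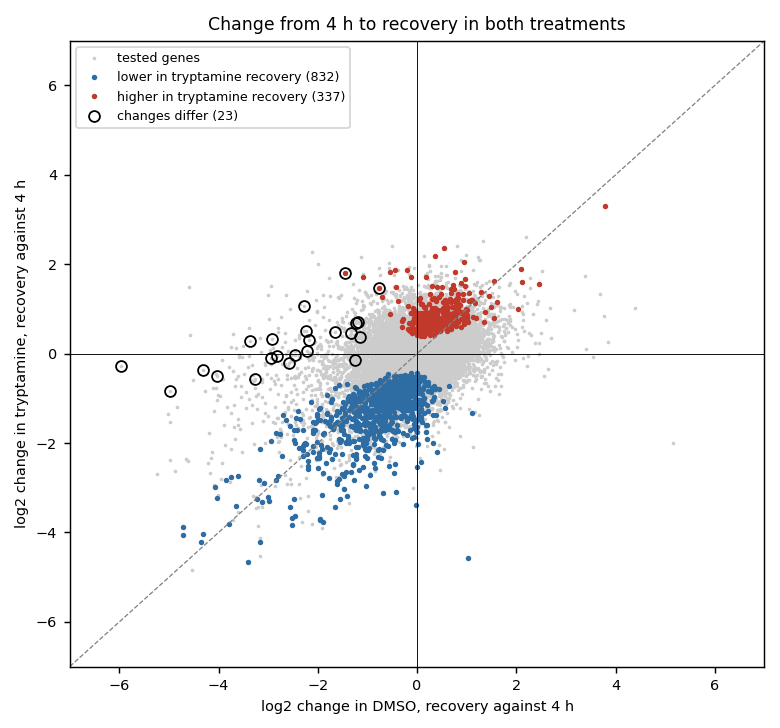
Log2 change from 4 h to recovery of each of the 24125 tested genes in DMSO (horizontal axis) and in tryptamine (vertical axis). Red points are the 337 genes that rose and blue points the 832 that fell in tryptamine, and black circles mark the 23 genes whose changes differed between the treatments; most coloured points lie in the quadrants where both changes have one sign, and most circles lie at a large fall in DMSO with little change in tryptamine.

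Testing the tryptamine change minus the DMSO change called 23 genes higher (0.0953%) and 0 lower by edgeR, with 2674 at an unadjusted p under 0.05. DESeq2 called 125 higher and 63 lower, and limma-voom 0 and 0. The call rested on single libraries, with 0 genes left without DMSO 4 h replicate 2, DMSO 4 h replicate 3, DMSO recovery replicate 2 or DMSO recovery replicate 3, and 1 left without tryptamine 4 h or recovery replicate 2. There were 5 higher and 0 lower without DMSO recovery replicate 1, 5 and 4 without tryptamine 4 h replicate 1, and 12 and 1 without tryptamine 4 h replicate 3. There were 106 and 4 without DMSO 4 h replicate 1, 26 and 41 without tryptamine recovery replicate 1, and 29 and 4 without tryptamine recovery replicate 3. In 22 of the 23 genes the 3 DMSO 4 h libraries lay above all 3 tryptamine 4 h libraries, and in 22 they lay above the DMSO 1 h libraries. Their median log2 change was -2.29 in DMSO and 0.27 in tryptamine, where 13 were positive and 10 negative. As a change in DMSO alone, 22 of the 23 passed as falls.

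RSAD2 c4918-g1, related to the vertebrate antiviral enzyme viperin, measured 0.673, 1.30 and 0.906 CPM at 4 h of tryptamine and 2.28, 1.31 and 2.40 CPM after recovery. In DMSO it measured 6.20, 11.5 and 11.3 CPM at 4 h and 1.43, 2.1 and 2.36 CPM after recovery. The tryptamine change of 1.07 did not pass (SE 0.37, edgeR adjusted p = 0.101), the DMSO change of -2.29 did (adjusted p = 0.000234), and their difference was 3.35 (adjusted p = 0.0223). After recovery the libraries of both treatments lay in overlapping ranges. IFIH1 c93646-g1, named for a sensor of double-stranded RNA, changed by 0.38 and -1.14 (difference 1.52, adjusted p = 0.0462). Of the 114 tested genes for RNA sensing and interferon-type effectors, 0 rose and 2 fell (1.75%) in tryptamine. In DMSO 3 rose and 13 fell, and 3 were among the 23. Of all tested genes 1.4% rose and 3.45% fell in tryptamine, and 2.54% and 4.33% in DMSO. The 23 were 0.0953% of all tested genes. Only 2 of the 23 also passed in tryptamine itself, both rises of unnamed genes: c17618-g1, by 1.80 (adjusted p = 0.0184), and c39895-g1, by 1.46 (adjusted p = 0.00904), named after their values were seen.

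Cell division genes were the group with the largest number of rises. Of 100 tested genes for DNA replication and the cell cycle, 18 rose and 0 fell, and 89 had a positive change, with a median of 0.34 against 0.04 over all tested genes. In DMSO 10 rose and 0 fell, with a median of 0.14. The list median per library, measured from the tryptamine 4 h mean, was 0.07, 0.02 and -0.08 at 4 h and 0.29, 0.24 and 0.40 after recovery. Fewer passed without tryptamine 4 h replicate 2 (8), 4 h replicate 3 (11) or recovery replicate 2 (9), while 24 rose and 3 fell without 4 h replicate 1. The list was chosen with earlier results of these data known.

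KIF20A c102009-g2, a kinesin motor of cytokinesis, measured 12.9, 5.88 and 9.72 CPM at 4 h and 21.1, 27.7 and 29 CPM after recovery. It rose by 1.44 on the log2 scale (SE 0.23, edgeR adjusted p = 0.00343), with no overlap between the groups. In DMSO it went from 9.06 ± 2.01 to 15.3 ± 1.18 CPM (SD, n = 3), which did not pass (0.75, adjusted p = 0.0534), and the difference of 0.69 did not either (adjusted p = 0.438). In tryptamine at 1 h it was at 25.5, 20.2 and 17.3 CPM, so the 4 h libraries were the low ones of the 3 times. CENPE c100281-g1, a kinetochore motor that helps chromosomes line up, measured 42.2, 30.9 and 36.4 CPM at 4 h and 64.9, 76.9 and 78.7 CPM after recovery (1.01, SE 0.15, adjusted p = 0.00208). Its 1 h libraries, at 73.7, 60.3 and 54.1 CPM, again lay above all 4 h libraries. TTK c94268-g2, a kinase of the spindle checkpoint, rose from 5.90 ± 1.58 to 14.1 ± 1.84 CPM (1.25, SE 0.23, adjusted p = 0.00613).

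WEE2,WEE1 c88507-g1, related to kinases that hold back entry into mitosis, rose by 1.23 (SE 0.20, adjusted p = 0.00358). KIF18A,KIF18B c80164-g1, a kinesin that damps chromosome movement, rose from 4.94 ± 0.891 to 9.99 ± 0.403 CPM (1.02, SE 0.16, adjusted p = 0.00353). Its DMSO change was 0.17 (adjusted p = 0.598), yet the difference of 0.85 did not pass (adjusted p = 0.172). The list thus held kinases and motors of mitosis on both the driving and the restraining side. PLK4 c37851-g1, the kinase that starts centriole duplication, rose by 1.22 (adjusted p = 0.0138), and BORA c97090-g3, an activator of Aurora A kinase, by 1.33 (adjusted p = 0.00683). Both calls ended without tryptamine 4 h replicate 2 (adjusted p = 0.0995 and 0.051). Further members that rose were PLK1 c103488-g1 (0.50), AURKA,AURKC,AURKB c97153-g1 (0.99), CDC20 c96947-g1 (0.93), CDT1 c92139-g2 (0.97) and CCNB1,CCNB2 c102166-g1 (0.73), named after their values were seen.

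**Figure D2:**
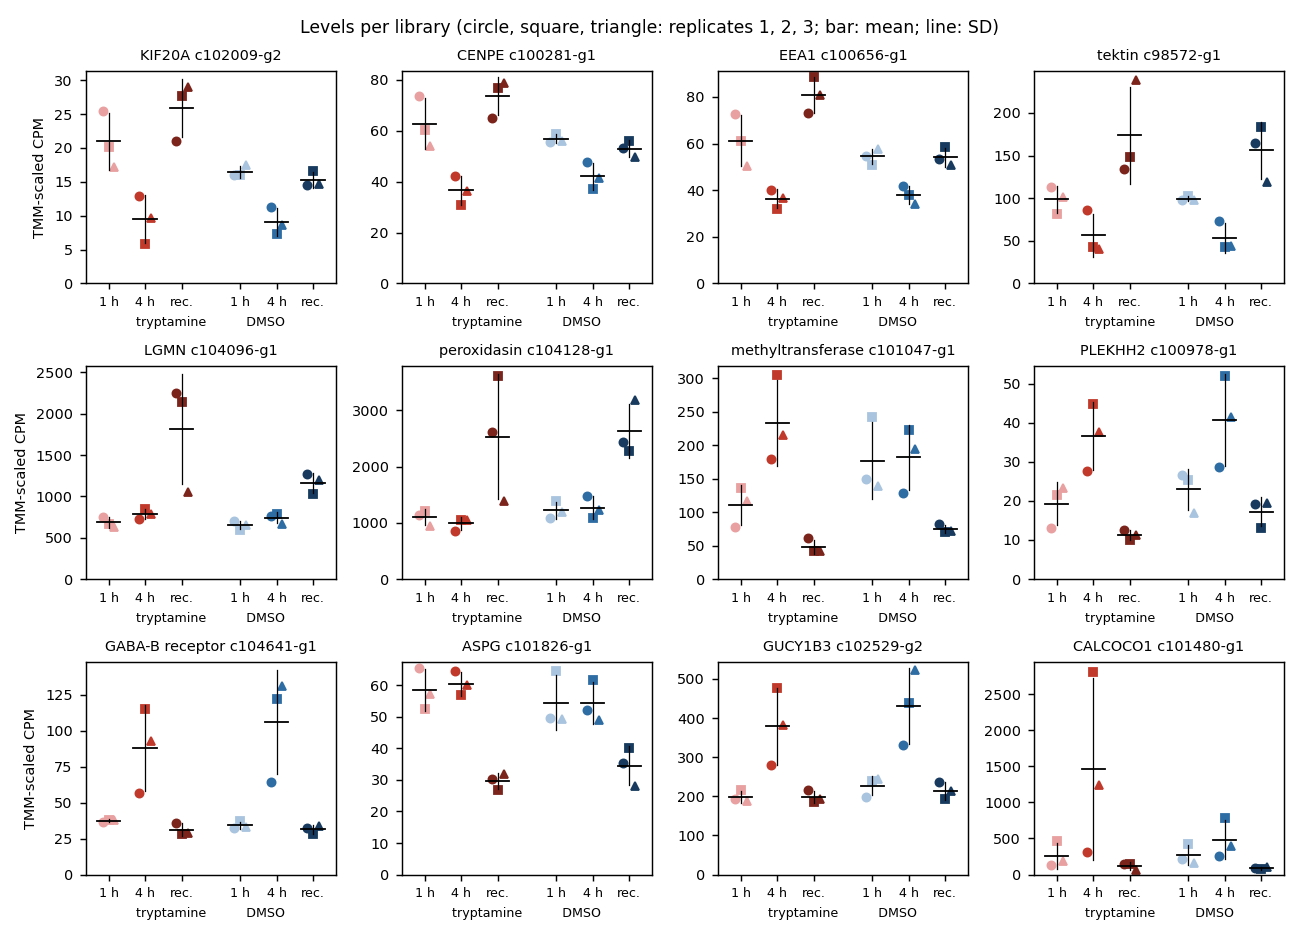
TMM-scaled CPM of 12 genes in the 18 libraries, by treatment and time (rec. is recovery); circles, squares and triangles are replicates 1, 2 and 3, the bar is the mean and the line the SD of 3 libraries. KIF20A, CENPE, EEA1 and tektin are low at 4 h in both treatments, LGMN and peroxidasin are highest after recovery, and CALCOCO1 at 4 h of tryptamine spans 317 to 2811 CPM with replicate 2 the highest.

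Lysosomal enzymes held some of the larger rises, but the list as a whole did not move in one direction. Of 114 tested lysosome and phagosome genes, 7 rose and 2 fell (6.14% and 1.75%, against 1.4% and 3.45% of all tested genes), and the median change was 0.02. In DMSO 2 rose and 3 fell. Legumain, LGMN c104096-g1, a lysosomal cysteine protease, measured 722, 844 and 789 CPM at 4 h and 2256, 2143 and 1051 CPM after recovery (1.21, SE 0.20, edgeR adjusted p = 0.00377). In DMSO the change was 0.65 (adjusted p = 0.0522), and the difference of 0.56 did not pass (adjusted p = 0.469). Cathepsin c98601-g2, of the same protease group, measured 200, 369 and 271 CPM at 4 h and 779, 1826 and 455 CPM after recovery, a rise of 1.86 (SE 0.42, adjusted p = 0.0256). This was the largest rise among named genes that met the rule, and it changed by -0.21 in DMSO (difference 2.07, adjusted p = 0.236). The recovery libraries ranged more widely than the 4 h libraries, with replicate 2 highest, and the groups did not overlap.

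The cathepsin c98601-g2 call ended when any one of the 3 tryptamine 4 h replicates was left out (adjusted p = 0.0556, 0.0885 and 0.0781) or recovery replicate 2 (0.0893). LIPA c102733-g1, a lysosomal acid lipase by its first symbol, rose by 0.87 (adjusted p = 0.0251) in tryptamine and by 0.77 in DMSO (adjusted p = 0.0321). Its tryptamine call ended without 4 h replicate 2 or 3 (0.113 and 0.0839) and without recovery replicate 1 or 2 (0.112 and 0.0817). A second cathepsin gene, c87972-g1, fell by 0.74 on the log2 scale (adjusted p = 0.0345) and fell by 0.75 in DMSO (adjusted p = 0.0223). The c87972-g1 call in tryptamine ended without 4 h replicate 2 (0.207) or 3 (0.0605) and without recovery replicate 1 (0.0933) or 2 (0.125). Of 28 tested genes named cathepsin, a group chosen after seeing values, 5 rose and 1 fell in tryptamine, where 1.4% and 3.45% of all tested genes did. In DMSO 0 rose and 3 fell, where 2.54% and 4.33% of all did. The medians of the cathepsin group were near 0, at -0.0005 in tryptamine and -0.02 in DMSO. Without tryptamine 4 h replicate 2, or 4 h replicate 3, or recovery replicate 2, 1 lysosomal gene rose and 0 fell. Without recovery replicate 1, 3 rose, and without recovery replicate 3, 15 rose and 3 fell.

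EEA1 c100656-g1, named for a tethering protein of early endosomes, had the smallest p of all named rises. It measured 40.1, 32.1 and 36.6 CPM at 4 h and 73, 88.4 and 80.9 CPM after recovery (1.15, SE 0.14, edgeR adjusted p = 0.00106), and rose by 0.52 in DMSO (adjusted p = 0.0332). The groups did not overlap in either treatment, and the difference of 0.64 did not pass (adjusted p = 0.266). Tektin TEKT5,TEKT4,TEKT1 c98572-g1, a filament protein of flagellar microtubules, measured 85.8, 42.2 and 40.9 CPM at 4 h and 134, 148 and 239 CPM after recovery (1.62, SE 0.30, adjusted p = 0.00857). It rose by nearly the same amount in DMSO (1.55, adjusted p = 0.00498), with an adjusted p of 0.0636 in tryptamine once 4 h replicate 2 was left out. Peroxidasin MLT-7 c104128-g1, a heme peroxidase that in worms and vertebrates acts on extracellular matrix, rose by 1.36 in tryptamine (SE 0.24, adjusted p = 0.00679) and by 1.05 in DMSO (adjusted p = 0.0134).

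HSPA8 c103927-g2, a housekeeping Hsp70 chaperone, measured 1836, 1568 and 1808 CPM at 4 h and 2918, 3822 and 2500 CPM after recovery (0.83, SE 0.20, edgeR adjusted p = 0.0246). In DMSO its level was 1615 ± 364 and then 1693 ± 54.5 CPM (SD, n = 3), a change of 0.07 (adjusted p = 0.883), and the difference of 0.76 did not pass (adjusted p = 0.317). The HSPA8 call ended without 4 h replicate 2 (0.138) or 3 (0.0588) and without recovery replicate 2 (0.129). Of 58 tested heat shock and chaperonin genes 1 rose and 1 fell (1.72% each, against 1.4% and 3.45% of all tested genes). In tryptamine 45 of the 58 had a positive change (median 0.22), and in DMSO 18 had (median -0.12). For the difference between both changes 0 of them passed. A gene named only heat shock, c98957-g1, moved the other way from HSPA8 and fell from 80.8 ± 31.5 to 29.6 ± 2.46 CPM (-1.45, SE 0.21, adjusted p = 0.00208).

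Ribosome-making genes showed a shared sign with almost no single call, and so did some other lists. Of 97 tested genes for ribosome biogenesis and RNA polymerase I, 92 had a positive change in tryptamine with a median of 0.27, but 1 rose and 0 fell. In DMSO 12 fell and 0 rose, with a median of -0.43. The list median per library was 0.14, -0.14 and 0.03 at 4 h of tryptamine and 0.27, 0.37 and 0.23 after recovery, and in DMSO it was -0.03, 0.18 and -0.34 and then -0.55, -0.28 and -0.44. The tryptamine groups did not overlap, the DMSO groups did, and the directions were opposite. The 1 gene called was RRN3 c95242-g1, which recruits RNA polymerase I to ribosomal DNA, at 50, 41.5 and 41 CPM and then 69.4, 76.3 and 60.9 CPM (0.64, SE 0.17, edgeR adjusted p = 0.0341). The median difference between both changes was 0.72 over the list, but 0 of its members passed that test. The RRN3 call ended without tryptamine 4 h replicate 2 (0.167) or 3 (0.109) and without recovery replicate 1 (0.0694) or 2 (0.139). Genes of cytosolic ribosomal proteins had a median of -0.04 in tryptamine and -0.33 in DMSO, with 0 of 86 called in either treatment. Among 37 aminoacyl-tRNA synthetases 2 rose in tryptamine (5.41%, against 1.4% of all tested genes). Among 46 mitochondrial ribosomal proteins 1 fell, against 8 that fell in DMSO. The shared sign was not particular to ribosome biogenesis. In tryptamine 31 of the 37 synthetases and 58 of 71 spliceosome and messenger RNA export genes had a positive change. So had 35 of 42 translation factors and 34 of 40 proteasome genes. The medians of these lists, in that order, were 0.33, 0.22, 0.30 and 0.21, against -0.18, -0.16, -0.19 and -0.15 in DMSO.

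**Figure D3:**
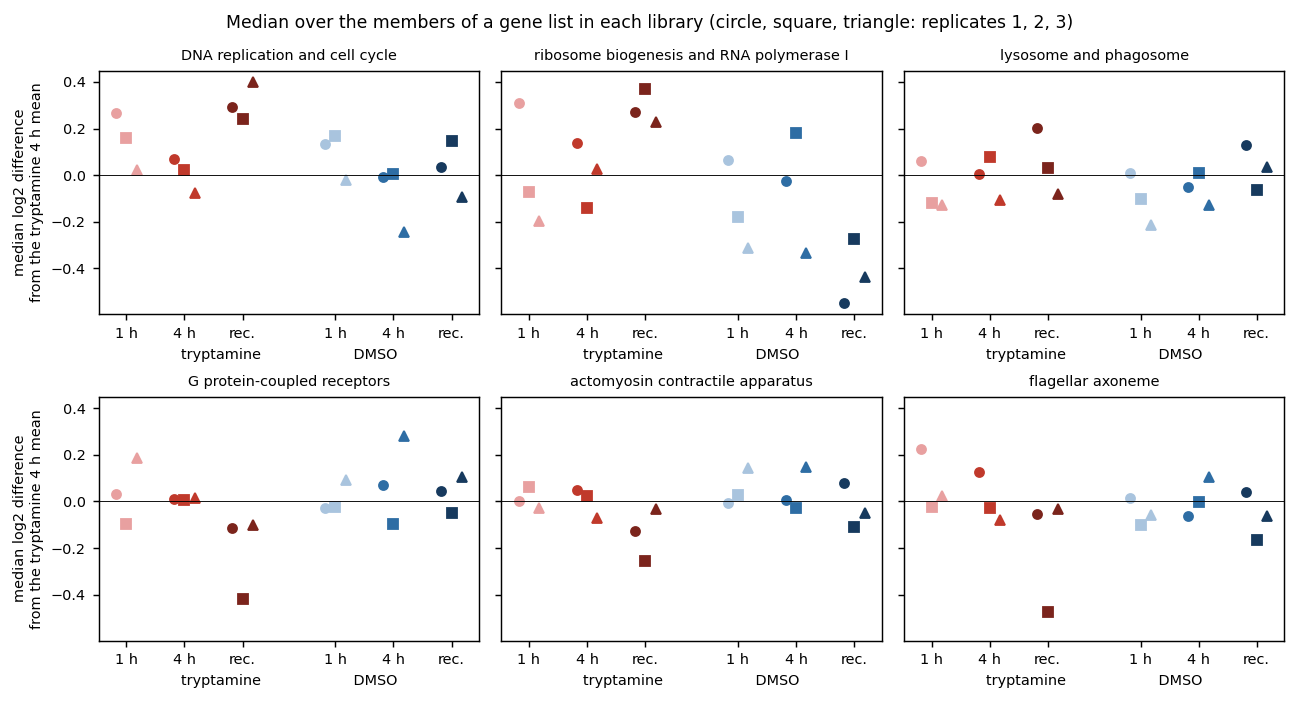
Median over the members of 6 gene lists in each of the 18 libraries, as the log2 difference from the tryptamine 4 h mean; circles, squares and triangles are replicates 1, 2 and 3. The recovery libraries of tryptamine lie above those of 4 h for cell division (0.24 to 0.40) and ribosome biogenesis (0.23 to 0.37), and recovery replicate 2 is the lowest tryptamine recovery library for receptors (-0.42), the actomyosin list (-0.26) and the axoneme (-0.47).

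Falls were more numerous and larger. Of 48 called genes followed, the 2 that passed under every alternative were falls with a negative change in DMSO as well. ANKIB1 and DBH, described below, were among the 20 of these 48 that stayed called whichever library was left out. Neither passed in DMSO, and neither passed the test of the tryptamine change minus the DMSO change. Methyltransferase c101047-g1, a name that gives no substrate, measured 179, 305 and 215 CPM at 4 h and 60.7, 41.9 and 41.4 CPM after recovery. It fell by 2.28 on the log2 scale (SE 0.28, edgeR adjusted p = 0.00106) and fell by 1.29 in DMSO (adjusted p = 0.00767). PLEKHH2 c100978-g1, a FERM-domain protein linked to the actin cortex in vertebrates, measured 27.6, 44.7 and 37.6 CPM and then 12.6, 10.1 and 11.2 CPM (-1.70, SE 0.26, adjusted p = 0.00338; -1.24 in DMSO). Of 48 called genes followed through 16 alternatives, these 2 passed under all of them. In both, every 4 h library lay above every recovery library.

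IQSEC2 c101940-g3, an activator of Arf GTPases in membrane traffic, fell by 1.33 (SE 0.20, adjusted p = 0.00208) and fell by 1.45 in DMSO (adjusted p = 0.00024). ASPG c101826-g1, an asparaginase, measured 64.4, 57 and 60 CPM at 4 h and 30.4, 26.9 and 31.9 CPM after recovery (-1.02, SE 0.15, adjusted p = 0.00247). RNF130 c103524-g4, a membrane-bound ubiquitin ligase, fell from 62.0 ± 4.86 to 33.7 ± 0.744 CPM (-0.88, SE 0.13, adjusted p = 0.00208). ASPG and RNF130 had narrow groups at both times, and their adjusted p was at most 0.0222 and 0.0171 whichever of the 6 libraries was left out; in DMSO they changed by -0.65 and -0.51. STAB1,POSTN,TGFBI c102832-g1, related to a scavenger receptor and to matrix adhesion proteins, fell by 1.63 (adjusted p = 0.00377).

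Among named genes that met the rule, several of the largest falls belonged to genes whose 4 h libraries were far apart. Protein phosphatase 1 regulatory subunit c100039-g1, which by its name steers a serine and threonine phosphatase, measured 9.19, 146 and 44.5 CPM at 4 h and 2.91, 3.36 and 1.58 CPM after recovery (-4.67, SE 0.89, edgeR adjusted p = 0.0154; -3.42 in DMSO, adjusted p = 0.0313). CALCOCO1 c101480-g1, whose vertebrate relative is an autophagy receptor, measured 317, 2811 and 1245 CPM and then 144, 148 and 59.8 CPM (-3.64, SE 0.79, adjusted p = 0.0252). RNF217 c101927-g2, a ubiquitin ligase, measured 53.1, 381 and 157 CPM and then 29.4, 23.1 and 12.8 CPM (-3.18, SE 0.82, adjusted p = 0.0443). In all 3 genes 4 h replicate 2 was highest, replicate 3 intermediate and replicate 1 lowest, and every recovery library lay below every 4 h library.

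TRAF3 c100230-g1, an adaptor of immune receptors, had the same order at 12.4, 92.0 and 46.8 CPM, against 4.79, 5.99 and 8.45 CPM after recovery (-2.97, SE 0.76, adjusted p = 0.0426). Without 4 h replicate 2 the calls ended for the phosphatase subunit (adjusted p = 0.0612), CALCOCO1 (0.126), RNF217 (0.216) and TRAF3 (0.207). Without recovery replicate 2 they ended as well (0.0707, 0.0921, 0.148 and 0.152), as they did without recovery replicate 3 (0.0501, 0.0748, 0.13 and 0.0878). Leaving out recovery replicate 1 ended those of CALCOCO1 (0.0588), RNF217 (0.0843) and TRAF3 (0.116), and 4 h replicate 3 those of RNF217 (0.0758) and TRAF3 (0.0808). ANKIB1 c91427-g1, a ubiquitin ligase of the RING-between-RING type, was an exception: at 7.18, 22.9 and 16.7 CPM and then 4.40, 1.68 and 1.92 CPM it fell by 2.55 (SE 0.41, adjusted p = 0.00377). Its adjusted p stayed between 0.00023 and 0.0331 whichever of the 6 libraries was left out, and the DMSO change of -0.84 did not pass (adjusted p = 0.234). The difference between both changes of ANKIB1 did not pass either. Over all 114 tested genes named for a RING finger, a group chosen after seeing values, 1 rose and 13 fell in tryptamine and 1 rose and 11 fell in DMSO, around medians of -0.08 and -0.12. Of all tested genes 1.4% rose and 3.45% fell in tryptamine, and 2.54% and 4.33% in DMSO.

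Of 91 tested G protein-coupled receptors, 0 rose and 9 fell (9.89%, against 3.45% of all tested genes), with a median of -0.26. Falls of receptors were more numerous in DMSO, where 2 rose and 13 fell around a median of 0.02. Of all tested genes 2.54% rose and 4.33% fell in DMSO. GABA-B type receptor c104641-g1, of the family that binds the amino acid transmitter GABA in animals with nerves, measured 56.4, 115 and 92.4 CPM at 4 h and 36.1, 28.3 and 28.7 CPM after recovery. It fell by 1.5 (SE 0.24, edgeR adjusted p = 0.00353) and fell by 1.75 in DMSO (adjusted p = 0.000265). At 1 h of tryptamine it was at 36.2, 38 and 37.9 CPM, below all 4 h libraries. A second one, c100319-g2, fell by 0.97 (adjusted p = 0.0104) and fell by 1.31 in DMSO (adjusted p = 0.000408), and its call ended without recovery replicate 2 (0.0672). The count of receptor falls was 2 without 4 h replicate 2, 2 without recovery replicate 2, and 3 to 11 without each of the other libraries; 1 receptor rose without 4 h replicate 1 and 1 with DESeq2.

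Frizzled GPRFZ2 c100637-g1, a Wnt receptor, measured 712, 1030 and 757 CPM at 4 h and 512, 347 and 335 CPM after recovery (-1.07, SE 0.22, adjusted p = 0.012). FRZB c98629-g1, a secreted antagonist of Wnt, fell by 1.53 (adjusted p = 0.0196) and fell by 2.05 in DMSO (adjusted p = 0.00181). Of 35 Wnt and TGF-beta genes 0 rose and 4 fell (11.4%), against 1.4% and 3.45% of all tested genes, and in DMSO 1 rose and 3 fell. A gene named for a Wnt receptor and a gene named for a Wnt antagonist were both among the falls in tryptamine. Both calls ended without 4 h replicate 2 (0.0816 and 0.107), and that of GPRFZ2 without recovery replicate 2 (0.0712). For FRZB the adjusted p was 0.0541, 0.0518 and 0.0609 without recovery replicates 1, 2 and 3.

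Downstream messengers gave a few falls each. Calmodulin, CAM c101992-g1, the main calcium sensor protein, measured 400, 475 and 371 CPM at 4 h and 258, 165 and 176 CPM after recovery (-1.06, SE 0.23, edgeR adjusted p = 0.0163). Its DMSO change was -0.29 (adjusted p = 0.501), and the difference of -0.77 did not pass (adjusted p = 0.381). PLCG1 c93216-g2, a phospholipase that releases calcium, fell by 1.10 (adjusted p = 0.0204). Of 35 calcium signalling genes 0 rose and 4 fell (11.4%), against 1.4% and 3.45% of all tested genes, and in DMSO 1 rose and 1 fell. The list median in tryptamine was -0.04, against 0.04 over all tested genes. GUCY1B3 c102529-g2, the beta subunit of the guanylate cyclase that senses nitric oxide, measured 279, 477 and 381 CPM and then 216, 186 and 193 CPM (-0.94, SE 0.18, adjusted p = 0.0086), and fell by 1.01 in DMSO (adjusted p = 0.00206). Its 1 h libraries, at 193, 215 and 188 CPM, lay in the range of recovery. Of 21 nitric oxide and cyclic GMP genes 0 rose and 3 fell (14.3%, against 3.45% of all tested genes), and in DMSO 3 rose and 3 fell.

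Of 17 immediate early and MAP kinase feedback genes, 0 rose and 4 fell (23.5%), against 1.4% and 3.45% of all tested genes, with a median of -0.27. In DMSO 1 rose and 1 fell and the median was 0.30. KLF10,KLF11 c99906-g1, zinc finger regulators induced by TGF-beta in vertebrates, measured 91.5, 149 and 85.2 CPM at 4 h and 45.6, 39.4 and 48.4 CPM after recovery (-1.29, SE 0.25, adjusted p = 0.00961). DUSP13 c95493-g1, a dual specificity phosphatase, fell by 0.62 (adjusted p = 0.0292), against 0.13 in DMSO. These signalling calls did not hold without 4 h replicate 2: the adjusted p was 0.0964 for CAM, 0.153 for PLCG1, 0.0604 for GUCY1B3, 0.0629 for KLF10,KLF11 and 0.191 for DUSP13. Without recovery replicate 2 it was 0.088, 0.0831, 0.0518, 0.0605 and 0.105. Without recovery replicate 3 it was 0.0514 for CAM, 0.0585 for PLCG1 and 0.0905 for DUSP13. Without 4 h replicate 2 or recovery replicate 2, 0 genes fell in each of the immediate early, calcium, nitric oxide and Wnt lists. The immediate early median was -0.10 without 4 h replicate 1 and -0.13 without recovery replicate 2.

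Among 66 genes for making, breaking down or moving monoamines, 2 rose and 4 fell (3.03% and 6.06%), against 1.4% and 3.45% of all tested genes. The median was 0.09, and in DMSO 2 rose and 6 fell. DBH c88070-g1, named for the enzyme that turns dopamine into noradrenaline, measured 10.8, 8.65 and 6.34 CPM at 4 h and 3.85, 1.61 and 2.82 CPM after recovery (-1.64, SE 0.27, edgeR adjusted p = 0.00358). It stayed called whichever of the 6 libraries was left out (adjusted p = 0.00191 to 0.0265), and its DMSO change was -0.66 (adjusted p = 0.148). The difference between both changes of DBH did not pass. AOX1,XDH c104679-g1, related to oxidases of aldehydes and purines, rose by 1.03 (adjusted p = 0.00874) and by 0.77 in DMSO (adjusted p = 0.0223), a call that ended without 4 h replicate 2 (0.0696).

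Of 95 actomyosin genes 0 rose and 8 fell (8.42%), against 1.4% and 3.45% of all tested genes, with a median of -0.17, and in DMSO 2 rose and 4 fell with a median of -0.07. Leiomodin, LMOD1 c101907-g1, which seeds actin filaments in vertebrate muscle, measured 76.1, 101 and 75.5 CPM at 4 h and 48.5, 42.1 and 50.3 CPM after recovery (-0.84, SE 0.16, edgeR adjusted p = 0.00843; -0.66 in DMSO, adjusted p = 0.0163). Its call ended without 4 h replicate 2 (0.0556) or recovery replicate 2 (0.0541). Summed over the list, the level was 40597 to 48655 CPM at 4 h and 31340 to 40633 CPM after recovery, ranges that overlap slightly. The count of falls was 0 without 4 h replicate 2 or recovery replicate 2, 5 without 4 h replicate 3, 3 without recovery replicate 1, and 15 without recovery replicate 3.

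Markers of other cell types were read on the same libraries. Axoneme genes of the choanocyte flagellum had 2 rises and 6 falls among 112 (1.79% and 5.36%, against 1.4% and 3.45% of all tested genes). Their median was -0.21, and in DMSO 2 rose and 4 fell. Their summed levels of 6766 to 7956 CPM at 4 h of tryptamine and 6835 to 7943 CPM after recovery overlap. Intraflagellar transport genes had 3 rises (3.95%) and 0 falls among 76, with 4 rises and 0 falls in DMSO. In tryptamine there were 0 of each without 4 h or recovery replicate 2. Of 33 archaeocyte and germline-type RNA-binding genes 1 rose, with summed levels of 2230 to 2968 and 2453 to 2957 CPM. The markers of all these cell types were thus present in both groups, and their part in the other results was not tested. Matrix genes and their proteases had 2 rises and 5 falls among 91 (2.2% and 5.49%), and in DMSO 2 rises and 14 falls. In tryptamine they summed 18192 to 23935 CPM at 4 h and 11856 to 18437 CPM after recovery. ADAM23 c104711-g2, a disintegrin of cell adhesion, measured 175, 907 and 563 CPM at 4 h and 127, 158 and 71.3 CPM after recovery (-2.21, SE 0.48, edgeR adjusted p = 0.0229), and fell by 2.1 in DMSO (adjusted p = 0.0177). Without 4 h replicate 2 or recovery replicate 2, 0 axoneme genes and 0 matrix genes fell. The ADAM23 call ended without 4 h replicate 2 (0.124) or 3 (0.0541) and without recovery replicate 1, 2 or 3 (0.0565, 0.0654 and 0.0666).

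**Figure D4:**
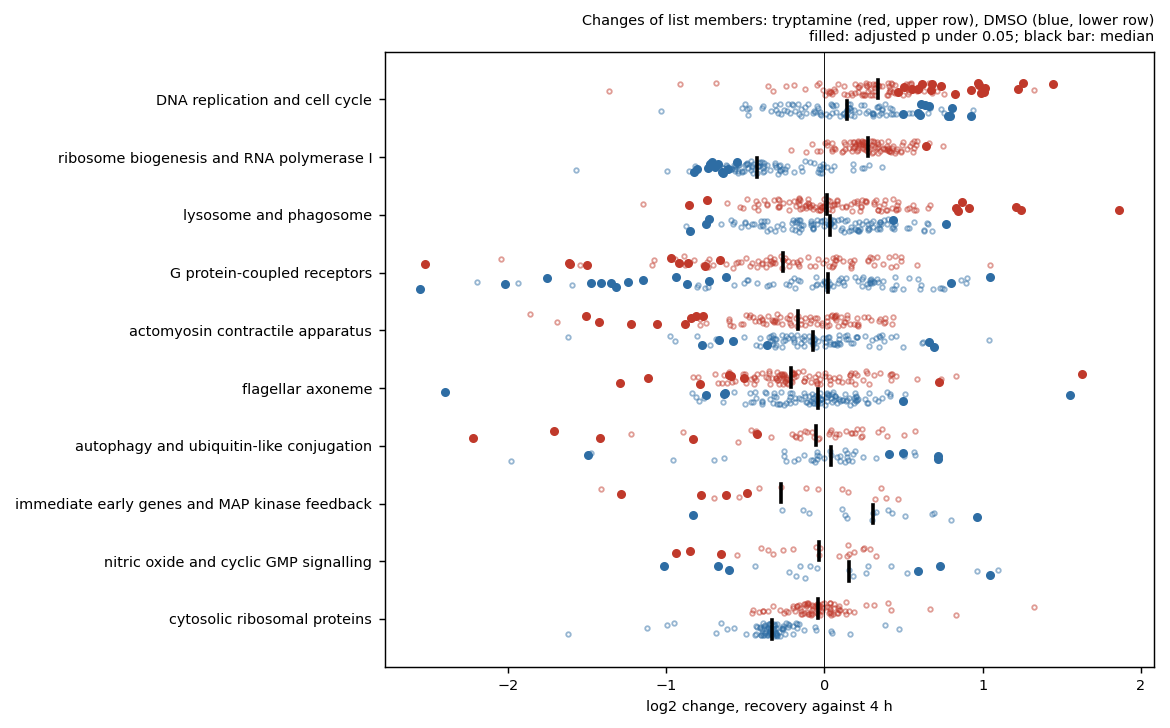
Log2 change from 4 h to recovery of each member of 10 gene lists in tryptamine (red, upper row) and DMSO (blue, lower row); filled points have an edgeR adjusted p under 0.05 and black bars are list medians. Called cell division genes lie only to the right (18 in tryptamine, 10 in DMSO), receptors called in tryptamine only to the left (9), and the ribosome biogenesis medians lie on opposite sides of 0 (0.27 and -0.43).

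Of 42 autophagy genes 0 rose and 5 fell, where 1.4% and 3.45% of all tested genes did. In the list 19 changes were positive and 23 negative, with a median of -0.06. The DMSO counts went the other way, with 4 rises and 1 fall around a median of 0.04, where 2.54% and 4.33% of all did. ATG9A c103407-g3, a lipid scramblase of the growing autophagosome, measured 296, 850 and 522 CPM at 4 h and 295, 188 and 141 CPM after recovery (-1.42, SE 0.33, edgeR adjusted p = 0.0266). TAX1BP1 c102882-g1, an autophagy receptor, measured 20.9, 61.7 and 27.5 CPM and then 12.6, 12.4 and 8.59 CPM (-1.71, SE 0.40, adjusted p = 0.0278). For ATG9A the lowest 4 h library and the highest recovery library were nearly equal, and 4 h replicate 2 was again the highest in both genes. Of 91 genes for NF-kappa-B and cell death 1 rose and 5 fell (5.49%), near the share over all genes, with a median of -0.01; in DMSO 2 rose and 12 fell. BAK1 c95892-g1, whose relatives open the outer mitochondrial membrane in apoptosis, fell by 1.02 (adjusted p = 0.00904) and fell by 0.99 in DMSO (adjusted p = 0.00474).

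Leaving out 4 h replicate 2 ended the calls of ATG9A (adjusted p = 0.152), TAX1BP1 (0.151) and BAK1 (0.0635), as did leaving out recovery replicate 2 (0.115, 0.0979 and 0.057). ATG9A was also lost without 4 h replicate 3 (0.0573) or recovery replicate 3 (0.0819), and TAX1BP1 without recovery replicate 1 (0.0601) or 3 (0.0884). Without 4 h replicate 2 or recovery replicate 2, 0 autophagy genes and 0 cell death genes fell. Without 4 h replicate 3, 1 and 2 fell, and without recovery replicate 3, 0 and 2; without 4 h replicate 1, 9 cell death genes fell.

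No named gene that passed in tryptamine also passed the test against the DMSO change. Falls of small p in that test included RNF11 and SORL1. RNF11 c98693-g1, a RING finger adaptor of ubiquitin ligases, measured 59.9, 136 and 86.7 CPM at 4 h and 46.8, 41.8 and 38.3 CPM after recovery (-1.15, SE 0.20, edgeR adjusted p = 0.00482). In DMSO it was at 43 ± 1.53 and 45.2 ± 4.77 CPM (SD, n = 3), and the difference was -1.23 (SE 0.28, adjusted p = 0.0957). SORL1 c88854-g1, a sorting receptor between endosomes and the Golgi, measured 58.5, 73.5 and 55.5 CPM and then 38.2, 14.5 and 24.5 CPM (-1.28, SE 0.25, adjusted p = 0.0106), with 0.23 in DMSO and a difference of -1.51 (adjusted p = 0.111). Both genes were higher in tryptamine at 4 h than in tryptamine at 1 h or after recovery in every library. The SORL1 call ended without 4 h replicate 2 (0.0612). Among all 832 falls, 225 had an unadjusted p under 0.05 for the difference, and among the 337 rises 104, against 2674 of all 24125 tested genes. These genes were chosen for their tryptamine change, which is a term of that difference. Small p-values are therefore more frequent among them by selection, and the counts are a description only.

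Several genes known from the comparison of tryptamine with DMSO at single times are given as a description, since those comparisons use the same tryptamine libraries. Synoviolin c97836-g1, a ubiquitin ligase of protein quality control, measured 125, 126 and 116 CPM at 4 h and 142, 114 and 87 CPM after recovery. Its tryptamine change was -0.10 (edgeR adjusted p = 0.888) and its DMSO change -2.95 (adjusted p = 8.99e-05), a difference of 2.84 (adjusted p = 0.0238). TRIM2 c87469-g1, of another ubiquitin ligase family, changed by 0.15 in tryptamine and -3.74 in DMSO (difference 3.89, adjusted p = 0.0536). Amine oxidase c101209-g1, named for enzymes that oxidise amines, measured 7.55, 9.34 and 8.48 CPM and then 8.01, 10.7 and 7.70 CPM, a change of 0.06 (adjusted p = 0.92), against -1.31 in DMSO. For these genes the tryptamine libraries overlapped between both times and the movement lay in DMSO. ASMT,ASMTL c100382-g1, related to the last enzyme of melatonin synthesis, changed by 0.04 and -1.18, and HSPD1 c96953-g1, the mitochondrial chaperonin, by 0.24 and -0.86. RNF213 c94017-g2, a giant ubiquitin ligase, changed by -1.14 (adjusted p = 0.149) and -3.70. KLF9 c102282-g1, a zinc finger regulator, changed by 0.46 (adjusted p = 0.0979) and 0.96, and guanylate cyclase c103422-g1, thioredoxin c95674-g1 and the sarcoplasmic calcium-binding protein CBP c101065-g1 by -0.55, -0.67 and -0.82, none of which passed (adjusted p = 0.191, 0.187 and 0.129). Calmodulin and RSAD2, described above, belong to the same set of 12 genes, of which calmodulin alone passed in tryptamine.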

How the data were processed

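The values are whole-number counts of paired reads for each gene, which the authors made with featureCounts 2.1.1 and deposited unscaled, per the file headers. Alignment used STAR, per the submitters' processing notes, with no version stated there. Counting ignored strand per the file headers, so overlapping genes cannot be told apart. The table's gene length, in bases per the file headers, is a deposited value of another kind and served for the length trend. Of 39562 genes 9417 carried a usable name.

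Genes were kept by filterByExpr, scaled by TMM and fitted in one edgeR 4.0.16 quasi-likelihood model (R 4.3.3, robust dispersions, a mean for each of 6 groups, 18 libraries, 12 residual degrees of freedom, biological coefficient of variation 21.0%). P-values are two-sided and Benjamini-Hochberg adjusted over all 24125 tested genes, with a threshold of 0.05, and the procedure was tested on simulated data. Named genes had an adjusted p under 0.05, at least 20 counts on average over the 6 libraries, no overlap between groups and a usable name, which 520 met. The text draws on the 12 largest rises and falls, the 6 of smallest p each way, 2 per list and direction, and 4 of smallest p each way for the difference from DMSO; genes outside the rule are said to be so or given as a description. The members, the 38 gene lists and these rules were chosen with earlier results of these data known. Alternatives were DESeq2 1.42.0, limma-voom (limma 3.58.1), another scaling (median of ratios), no filter on low counts or one of 20 counts in 3 libraries, a fit of only those groups that were compared, a block for the replicate number, dispersions without robust shrinkage, a fold threshold of 1.5 and each library left out. Removal of the length trend was added after seeing the data. Replicate libraries differed beyond sampling noise, so each was counted. Results for some genes are not reported here.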

Additional observations from a re-analysis of the deposited data

Results flagged for a closer look

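Named genes whose change from 4 h to recovery differed between tryptamine and DMSO in the interaction test of edgeR are given here with the tryptamine change minus the DMSO change on the log2 scale. The difference was 3.35 for RSAD2 c4918-g1, 2.84 for synoviolin c97836-g1 and 3.54 for RNF213 c94017-g1. For CUL9 c80372-g1, of a ubiquitin ligase scaffold family, it was 2.29, and for IFIH1 c93646-g1 1.52. NUP98, a nuclear pore protein, was the name of 2 genes of one component, c103700-g1 with 1.88 and c103700-g2 with 1.79. Inversin, INVS c96267-g1, a protein of cilia and Wnt signalling in vertebrates, differed by 1.10. None of these 8 passed the test in tryptamine alone.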

How the results depend on the processing

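All 1169 genes called in tryptamine kept their direction under every alternative in which they were tested, but the number called moved. The alternatives reuse the libraries that selected these genes, and in most of them the groups did not overlap. A kept direction was therefore nearly fixed in advance. Rises and falls in tryptamine, 337 and 832 as reported, became 495 and 1442 with DESeq2, 187 and 794 without a filter, 0 and 12 in the fit of the compared groups by themselves, and 0 and 22 against a fold of 1.5. Leaving out one library of the 6 gave 34 to 517 rises and 116 to 1284 falls. In DMSO the 612 and 1044 became 638 and 1218 in the fit of the compared groups by themselves, and 31 and 301 against a fold of 1.5. Leaving out 1 DMSO library gave 172 to 521 and 509 to 1058. For the difference, 23 and 0 became 125 and 63 with DESeq2, 8 and 0 with the compared groups by themselves, 0 and 0 against a fold of 1.5 (921 at an unadjusted p under 0.05), 0 and 0 with limma-voom (2647) and 21 and 2 without a filter. Leaving out one library gave 0 to 106 and 0 to 41. Fewer samples enter the smaller fits in both treatments, and the cause of these shifts was not tested. With the length trend removed, chosen after seeing the data, the tryptamine counts were 307 and 926. Same-numbered libraries deviated from their group means with correlations of -0.008, 0.24 and 0.07 in tryptamine and -0.23, 0.08 and 0.12 in DMSO. Not every library correlated best with its own number. Deviations from means of 3 libraries cannot settle whether same-numbered libraries share a batch, and the labels do not say. With the replicate block, 775 and 1272 genes were called in tryptamine, 1087 and 1516 in DMSO, and 33 and 6 for the difference. Of 48 called genes followed, 20 passed whichever library was left out, 27 were lost without tryptamine 4 h replicate 2 and 23 without recovery replicate 2, and 0 reversed. Genes near 0.206 to 0.259 CPM rest on about 3 counts.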
